A study of Oryctolagus cuniculus with 6 samples.

Results

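The cathepsins, legumain and the main lysosomal membrane proteins were described in rabbit retina with and without proliferative vitreoretinopathy (PVR), the growth of contractile scar tissue on and around the retina. The set was defined by gene symbol and holds CTSB, CTSD, CTSS, CTSK, CTSL, CTSZ, CTSH, LGMN, LAMP1 and LAMP2. Of these 10 genes, 8 had a row under their symbol among the 28788 genes of the tables, and all 8 passed the filter on low counts. CTSD and CTSL had no row under their symbol and are not analysed here. In the study, 3 retina samples labelled normal were compared with 3 labelled PVR. Adult rabbits of a strain that is not given received a scleral puncture, a withdrawal of part of the vitreous, and an injection of platelet-rich plasma into the vitreous cavity. A sham puncture of the normal eyes, the time of collection and the number of animals behind the samples are not given in the sources used here. P-values therefore measure the spread between these 6 samples, which may be technical.

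Lysosomes are acid compartments in which proteins, lipids and glycans taken up from outside or from the cell itself are broken down. Cathepsins are their peptidases, and most of them, like legumain, are cysteine enzymes that are made as inactive precursors and are activated at low pH. LAMP1 and LAMP2 are the heavily glycosylated proteins that line the lysosomal membrane from within. In the retina, lysosomal breakdown is best known from the pigment epithelium, which digests shed photoreceptor tips, and from microglia and macrophages, which clear debris. Some cathepsins, CTSK and CTSS among them, also act on matrix proteins outside the cell.

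Each sample had from 31904593 to 43035080 counted reads. Photoreceptor genes, which define the labelled tissue, were all present, and their summed level was between 28860 and 46137 CPM (counts scaled to a fixed library total). Lens genes stood at 31161 CPM in normal replicate 2, at 12.1 and 15.2 CPM in the other normal samples, and between 272 and 308 CPM in PVR. The fits that each leave out a sample include one without normal replicate 2. In bulk tissue, fewer cells of a type and less RNA per cell cannot be told apart.

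CTSK was higher in PVR, and it was the single gene of the 8 that passed the test. The other 7 did not pass, and none was lower past the test. A gene passed when edgeR, run with its quasi-likelihood method, gave an adjusted p under 0.05 after Benjamini-Hochberg adjustment over all 18697 genes tested. The share of 1 in 8 is to be read against 1.7% of all genes tested that passed in either direction with 1.09% as higher and 0.615% as lower. With DESeq2, the tool named in the study's methods, 3 of the 8 passed as higher (CTSK, CTSH and LAMP2) and none as lower, against 5.86% of all genes as higher, 3.79% as lower and 9.65% in either direction. At an unadjusted p under 0.05 with edgeR, 3 of the 8 were higher and 1 was lower, a share of 50.0% against 21.2% of all genes tested, of which 11.3% were higher and 9.94% lower. The median log2 fold change of the 8 genes was 0.23, and that of all genes tested was -0.01.

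**Figure D1:**
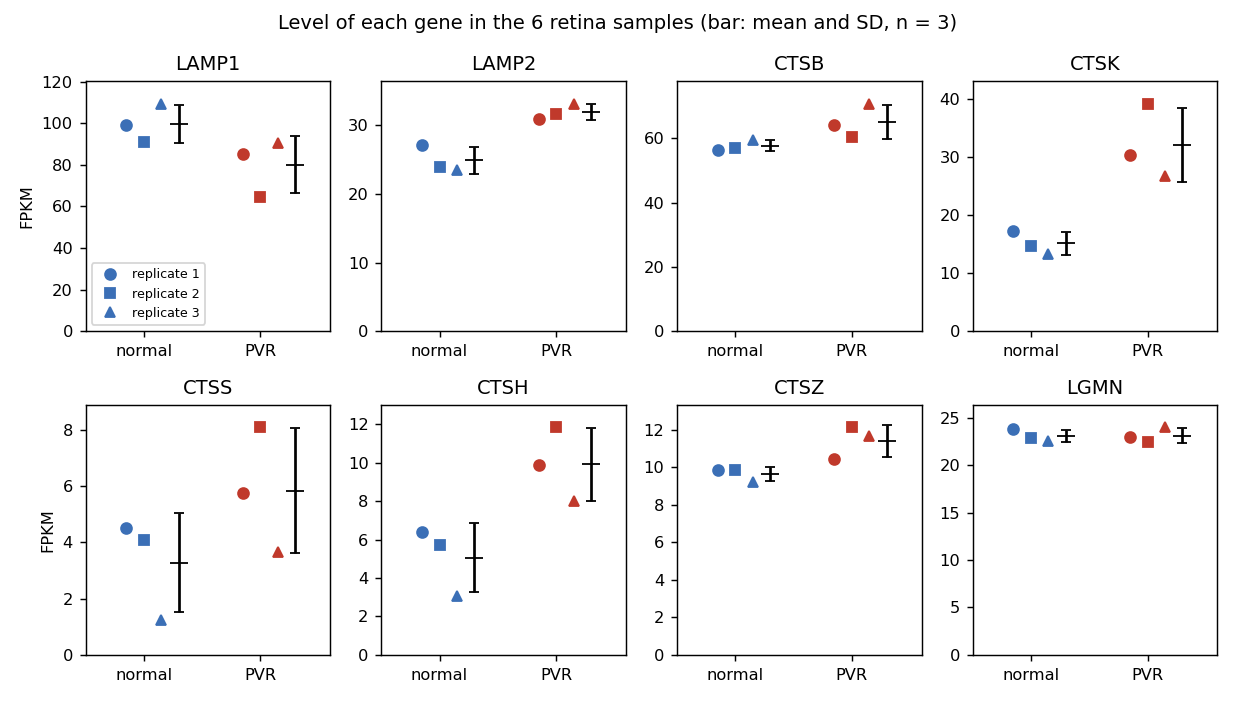
FPKM (reads scaled by gene length and by the counted reads of the sample, linear axes from 0) of each gene in the 3 normal (blue) and 3 PVR (red) samples, with the group mean and SD as a black bar and the replicate number as the marker shape. CTSK lies between 13.4 and 17.3 in normal retina and between 26.8 and 39.2 in PVR, whereas LGMN lies between 22.4 and 24.0 in all 6 samples.

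CTSK, or cathepsin K, is the collagen-degrading peptidase best known from osteoclasts and is also made by fibroblasts and macrophages. Its FPKM was 17.3, 14.7 and 13.4 in normal replicates 1, 2 and 3 and 30.3, 39.2 and 26.8 in PVR replicates 1, 2 and 3. The groups did not overlap, and PVR replicate 2 was the highest of all. The counts behind these values were 1286, 1141 and 1019 in normal retina and 1842, 2413 and 2194 in the PVR samples. The mean FPKM rose from 15.1 ± 2.03 (SD, n = 3) to 32.1 ± 6.38 (SD, n = 3), a ratio of 2.12. The log2 fold change was 1.01 (standard error 0.16, 95% interval 0.64 to 1.38, adjusted p = 0.0343 from edgeR). This is just past the study's fold threshold of 1 on the log2 scale, which 0.69% of all genes tested passed upward together with the adjusted p. By p, CTSK ranked at position 163 of the 18697 genes. The call was kept in 10 of 15 other settings. It was lost without normal replicate 1 (adjusted p = 0.0691), normal replicate 2 (0.116), PVR replicate 1 (0.188) and PVR replicate 2 (0.0665) in the same edgeR test, while the log2 fold change stayed between 0.85 and 1.12.

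**Figure D2:**
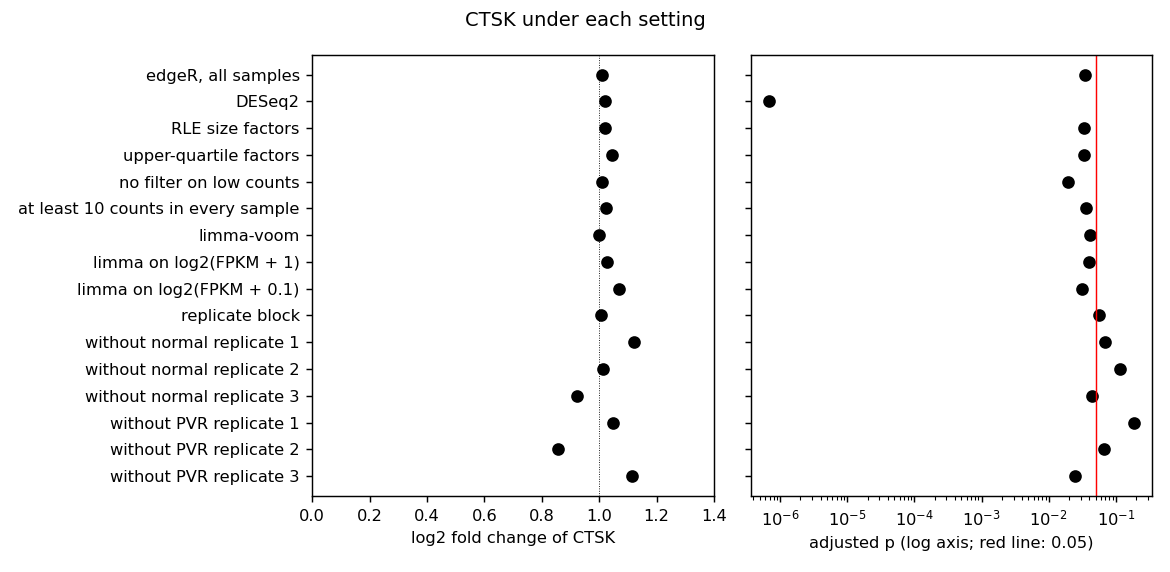
Log2 fold change of CTSK (left) and its adjusted p on a log axis (right) in the edgeR fit of all 6 samples and in the 15 other settings. The log2 fold change lies between 0.85 and 1.12 throughout, and the adjusted p is above the red line at 0.05 in 5 settings, with the highest value of 0.188 without PVR replicate 1.

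CTSS, the cathepsin that trims the invariant chain in antigen-presenting cells and stays active at neutral pH, had the widest spread of the 8 genes. Its FPKM was 4.52, 4.08 and 1.25 in normal retina and 5.77, 8.09 and 3.67 in PVR. The groups overlapped, since PVR replicate 3 was below normal replicates 1 and 2. The counts were low, with 75 in normal replicate 3 against 263 and 249 in the other normal samples. A log2 fold change of 0.75 (95% interval -0.40 to 1.89, adjusted p = 0.412 from edgeR) did not pass, and it was 0.36 without normal replicate 3 and 0.45 without PVR replicate 2.

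CTSH, an aminopeptidase of lysosomes and of surfactant-producing cells, had an FPKM of 6.42, 5.72 and 3.05 in normal retina and 9.89, 11.8 and 8.02 in PVR. The groups did not overlap, and normal replicate 3 was again the lowest. With edgeR its log2 fold change was 0.89 (95% interval 0.19 to 1.59, adjusted p = 0.161 from edgeR), which did not pass, whereas DESeq2 gave an adjusted p of 0.0363. Over all other settings the adjusted p was between 0.0363 and 0.393.

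CTSB, among the most abundant lysosomal peptidases, is listed by the study as a ferroptosis-related gene that was higher in human PVR on microarrays. In the rabbit samples its FPKM was 56.5, 57.1 and 59.7 in normal retina and 64.2, 60.5 and 70.8 in PVR. The values were separated on this scale by a narrow gap, but they overlapped in CPM after TMM normalization, where PVR replicate 2 was at 120 and normal replicates 2 and 3 were at 123. Between the groups the log2 fold change was 0.10 (95% interval -0.10 to 0.31, adjusted p = 0.504 from edgeR). CTSZ, a carboxypeptidase also found at the cell surface, had an FPKM of 9.89, 9.88 and 9.22 in normal retina and 10.5, 12.1 and 11.7 in PVR. For CTSZ the log2 fold change was 0.17 (95% interval -0.14 to 0.48, adjusted p = 0.481 from edgeR).

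LGMN, or legumain, cleaves after asparagine and helps to activate several cathepsins. It was the steadiest of the 8 genes, with an FPKM of 23.8, 22.9 and 22.5 in normal retina and 22.9, 22.4 and 24.0 in PVR. The group means were 23.1 ± 0.638 (SD, n = 3) and 23.1 ± 0.802 (SD, n = 3). With edgeR the log2 fold change was -0.07 (95% interval -0.26 to 0.12, adjusted p = 0.653).

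**Figure D3:**
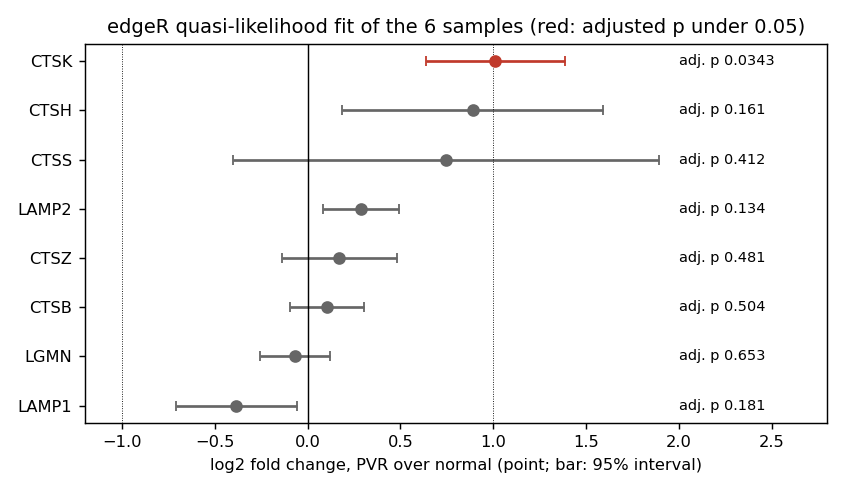
Log2 fold change of PVR over normal for the 8 genes (points) with 95% intervals from edgeR's fit of the 6 samples, dotted lines at -1 and 1, and the adjusted p at the right. The interval of CTSK is from 0.64 to 1.38, and those of CTSS, CTSZ, CTSB and LGMN include 0.

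The pair of lysosomal membrane proteins had changes of opposite sign, and neither passed the test. LAMP1, the most abundant per length of the 8 genes, had an FPKM of 99.1, 91.2 and 109 in normal retina and 85.4, 64.7 and 90.4 in PVR. Every PVR sample was below every normal sample, although PVR replicate 3 came within 1 FPKM of normal replicate 2. The log2 fold change was -0.38 (95% interval -0.71 to -0.06, adjusted p = 0.181 from edgeR and 0.083 from DESeq2). LAMP2, which is also needed for the fusion of autophagosomes with lysosomes and for chaperone-mediated autophagy, had an FPKM of 27.2, 24.0 and 23.5 in normal retina and 30.9, 31.7 and 33.1 in PVR. Here the PVR samples were all above the normal samples. For LAMP2 the log2 fold change was 0.29 (95% interval 0.08 to 0.49, adjusted p = 0.134 from edgeR and 0.0416 from DESeq2). LAMP2 has several splice forms, which are counted together in these tables.

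The ratio of LAMP2 to LAMP1 within a sample does not depend on how samples are scaled against each other, and it was chosen after the values of both genes had been seen. It was 0.274, 0.263 and 0.215 in normal retina and 0.362, 0.490 and 0.367 in PVR. The mean ratio was 1.62 times higher in PVR, and the groups did not overlap, as was already so for each of the genes. No test is given for a ratio chosen in this way. The ratio of CTSK to CTSB, chosen in the same way, was 0.307, 0.257 and 0.224 in normal retina and 0.473, 0.648 and 0.378 in PVR. The ratio of CTSK to CTSS was 3.84, 3.60 and 10.7 in normal retina and 5.26, 4.84 and 7.30 in PVR, and these ranges overlapped.

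In CPM after TMM normalization, 4 of the 8 genes had no overlap between the groups, against 28% of all genes tested. CTSK, CTSH and LAMP2 were higher in every PVR sample and LAMP1 was lower. In FPKM, which is scaled by the total count alone, CTSB and CTSZ were added and 6 of the 8 did not overlap, against 26.7% of all genes tested.

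Compared per length, the order of the mean levels in the normal retina was LAMP1 (99.9 FPKM), CTSB (57.8), LAMP2 (24.9), LGMN (23.1), CTSK (15.1), CTSZ (9.66), CTSH (5.07) and CTSS (3.28). LAMP2 and LGMN, and also CTSH and CTSS, had overlapping ranges, whereas the other neighbours did not. In PVR, CTSK stood in the third place with a mean FPKM of 32.1, next to LAMP2 with 31.9, and the ranges of this pair overlapped. LAMP1 (80.2) and CTSB (65.2) also overlapped in PVR, as did CTSZ (11.4) with CTSH (9.92) and CTSH with CTSS (5.84). Summed over the 8 genes, the level was 245, 230 and 242 FPKM in normal retina and 260, 251 and 268 FPKM in PVR, a ratio of the means of 1.09. Within this sum, the share of LAMP1 was between 39.7% and 45.2% in normal retina and between 25.8% and 33.7% in PVR, and the share of CTSK was between 5.52% and 7.08% in normal retina and between 9.98% and 15.6% in PVR.

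Of the 100 genes tested in 7 further lists of lysosomal genes, a single gene passed the test, against 1.7% of all genes tested. It was ATP6V0D2, a subunit of the proton pump found mainly in osteoclasts, macrophages and a few epithelia. ATP6V0D2 had 5, 3 and 3 counts in normal retina and 76, 118 and 22 counts in PVR. All PVR samples were above the normal samples, with PVR replicate 2 again the highest and PVR replicate 3 the lowest of the group. Its log2 fold change was 4.43 (standard error 0.80, adjusted p = 0.0466 from edgeR). ATP6V0D2 reached the filter on low counts only through its PVR samples, so its call as higher is not independent of the filter. Per counted read the ratio of the summed counts was 21.9 (95% interval 12 to 44.6, exact Clopper-Pearson, for counting error alone, as PCR copies were not removed by molecular identifiers). The level stayed low, with at most 1.62 FPKM, against between 71.3 and 82.5 FPKM for ATP6V0D1, the subunit that takes the same place in most cells. The call of ATP6V0D2 was kept in 5 of 14 other settings and lost without each sample in turn except PVR replicate 3, with an adjusted p of up to 0.223 from edgeR. On the log2(FPKM + 1) and log2(FPKM + 0.1) scales, where the added constant understates the change of a low gene, its log2 fold change was 0.85 and 2.62.

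Of the 19 subunits of the proton pump tested, the other 18 did not pass, and 15 of the 19 had a log2 fold change below 0. The median over the list was -0.14. Among 13 tested genes of lysosomal sorting none passed, with 11 below 0 and a median of -0.19. None of the 19 further lysosomal membrane and transport genes passed either, with 16 below 0 and a median of -0.14. Over all genes tested, 9551 were below 0 and 9146 above, with a median of -0.01. At an unadjusted p under 0.05, 4 of 19 pump subunits, 3 of 13 sorting genes and 2 of 19 membrane genes were lower, against 9.94% of all genes tested, and the share of the membrane genes is near that background. NPC1, which exports cholesterol from lysosomes, was just short of the threshold and is named because its value had been seen. Its FPKM was 26.4, 26.1 and 29.7 in normal retina and 19.8, 17.0 and 21.4 in PVR. The log2 fold change of NPC1 was -0.57 (standard error 0.11, adjusted p = 0.0516 from edgeR and 0.000367 from DESeq2). SCARB2, a lysosomal membrane protein that also acts as a sorting receptor, had an FPKM of 41.4, 40.9 and 47.6 in normal retina and 36.1, 34.2 and 34.3 in PVR. Its log2 fold change was -0.38 (standard error 0.08, adjusted p = 0.0638 from edgeR and 0.00249 from DESeq2). In DESeq2, 4 of the 100 genes passed as lower (NPC1, SCARB2 and the sorting genes VPS11 and VPS18), which is near the 3.79% of all genes that did so.

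**Figure D4:**
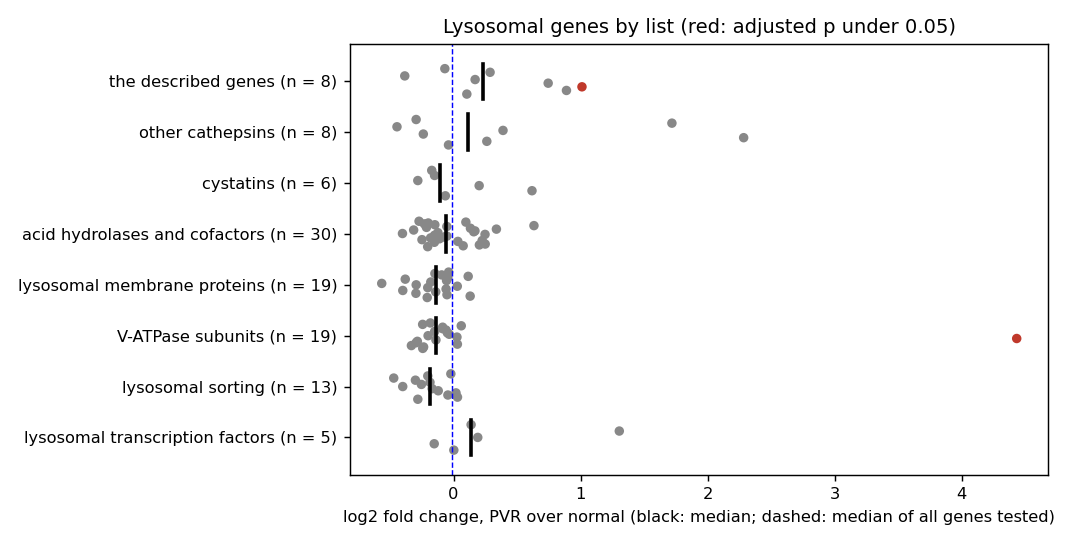
Log2 fold change of PVR over normal (edgeR) for each tested gene of the described set and of 7 further lysosomal lists, with the median of each list as a black bar and that of all genes tested as a dashed line. CTSK and ATP6V0D2 are the red points, which passed an adjusted p of 0.05, and the medians of the other lists lie between -0.19 and 0.14.

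None of the 30 acid hydrolases and cofactors tested passed, and their log2 fold changes were between -0.40 and 0.63 with a median of -0.06. PSAP, the precursor of activators of lipid breakdown, and GAA, an enzyme of glycogen breakdown, had log2 fold changes of -0.20 and 0.03. At an unadjusted p under 0.05, 4 of the 30 were higher, near the 11.3% of all genes tested, and 1, HEXA, was lower. Their median was between -0.16 and 0.00497 over the other settings. None of the 6 inhibitors tested passed either, with a median of -0.11 that turned to 0.17 without normal replicate 2. Cystatin C (CST3), the abundant secreted inhibitor of cysteine cathepsins, had an FPKM of 397, 331 and 281 in normal retina and 335, 260 and 417 in PVR, and these ranges overlapped.

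Of the 8 other cathepsins tested none passed, and the median log2 fold change was 0.11. It was -0.13 with at least 10 counts in every sample, a filter that removes CTSE and NAPSA. At an unadjusted p under 0.05 with edgeR, 3 of these 8 were higher and CTSF was lower. This is the share of 50.0% also found for the described genes, against 21.2% of all genes tested. CTSE, NAPSA and CTSO were the higher ones, with log2 fold changes of 2.28, 1.72 and 0.39. These 3 and CTSF had no overlap between the groups in CPM, as had 28% of all genes tested. No sample had more than 30 counts of CTSE or 36 of NAPSA. Both reached the filter on low counts only with their PVR samples, where they are high. These shares are therefore not independent of the filter, and no conclusion is drawn from them. CTSV, the closest relative of CTSL, had an FPKM of 110, 107 and 45.0 in normal retina and 64.7, 86.8 and 51.9 in PVR. Its log2 fold change was -0.45 (standard error 0.34, adjusted p = 0.477 from edgeR), with normal replicate 3 far below the other normal samples. CTSL and CTSV are similar in sequence and names are not always carried over between species, so the identity of this row is uncertain. CTSF, a ubiquitous cysteine cathepsin, had an FPKM of 53.1, 52.0 and 51.3 in normal retina and 46.9, 47.5 and 44.8 in PVR. With edgeR, CTSF differed by -0.24 on the log2 scale (standard error 0.07, adjusted p = 0.111).

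The transcription factors TFEB, TFE3 and MITF, which switch on lysosomal genes, had log2 fold changes of 0.19, -0.15 and 0.00. TFEC, the family member found mainly in macrophages, had 90, 131 and 31 counts in normal retina and 133, 226 and 230 in PVR. Its log2 fold change was 1.31 (standard error 0.50, adjusted p = 0.195 from edgeR). None of the 5 genes of this list passed.

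The summed level of macrophage and microglia markers was higher in every PVR sample than in every normal sample. Of 18 such markers, 17 were matched and tested, and all 17 had a log2 fold change above 0, with a median of 0.96. None passed the edgeR test, 10 were higher at an unadjusted p under 0.05 (11.3% of all genes tested), and 6 passed as higher with DESeq2 (5.86%). The sum was 93.2, 91.4 and 47.3 CPM in normal retina and 154, 172 and 124 CPM in PVR, and no marker was at 0 in any sample. From the lowest to the highest sample the order of this sum was normal 3, normal 2, normal 1, PVR 3, PVR 1 and PVR 2. CTSK and CTSH had the same order of samples in FPKM. CTSS differed from it in the place of PVR replicate 3, and LAMP1 had its highest value in normal replicate 3 and its lowest in PVR replicate 2. CTSB, CTSZ, LAMP2 and LGMN had other orders. The order was not particular to these markers. That of the neutrophil and platelet sum differed only by an exchange of normal replicates 1 and 2. For the endothelial sum, PVR replicates 1 and 2 were exchanged. The part of macrophages and microglia in the levels of these genes was not tested.

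**Figure D5:**
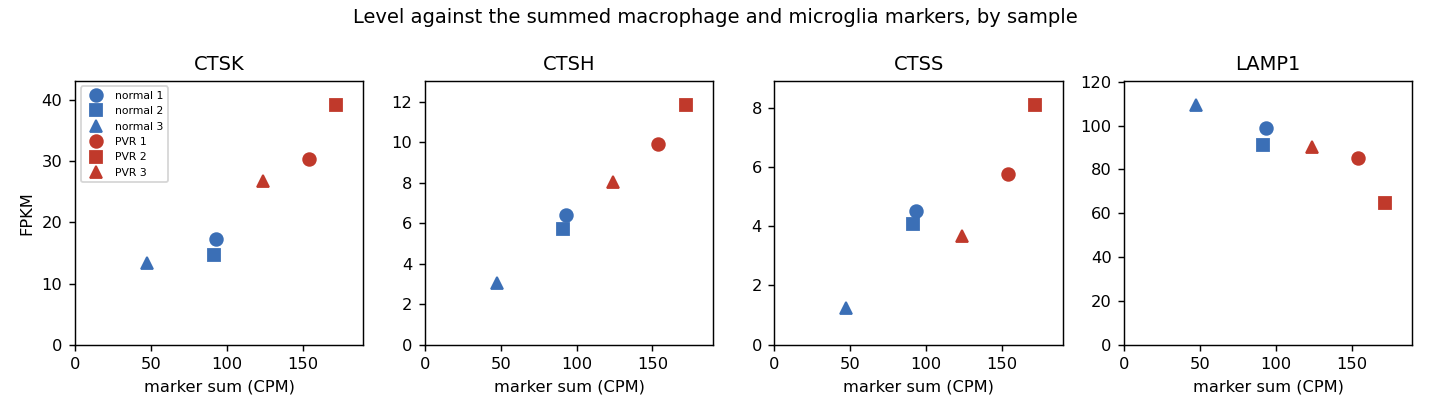
FPKM of CTSK, CTSH, CTSS and LAMP1 in each sample against the summed level of 17 macrophage and microglia markers in CPM (linear axes from 0, normal in blue, PVR in red, marker shape for the replicate). PVR replicate 2, with the highest sum of 172 CPM, has the highest CTSK, CTSH and CTSS and the lowest LAMP1, and normal replicate 3, with the lowest sum of 47.3 CPM, has the lowest CTSK, CTSH and CTSS.

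Fibroblast markers, a list of 8 genes, were also at a higher sum in PVR, with 108, 81.4 and 98.0 CPM in normal retina and 217, 111 and 324 CPM in PVR. None of the 8 passed the edgeR test and 1 passed as higher with DESeq2 (5.86% of all genes tested), the matrix proteoglycan LUM. PVR replicate 2 had the lowest sum of the PVR samples and the highest CTSK. COL1A1, the main fibrillar collagen chain, had 1817, 190 and 4485 counts in PVR replicates 1, 2 and 3, against 469, 224 and 532 in normal retina.

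Neutrophil and platelet markers had a summed level between 3.24 and 5.14 CPM in normal retina and between 11.7 and 22.2 CPM in PVR. Of 10 such markers 6 were tested, and S100A8, S100A9 and S100A12 passed as higher, against 1.09% of all genes tested. Their log2 fold changes were 4.27, 2.96 and 3.21 (adjusted p = 0.0486, 0.0416 and 0.0342 from edgeR). Another 1 of the 6 was lower in every PVR sample, with a log2 fold change of -0.53. MPO, an enzyme of neutrophil granules, was at 0 in all samples, and whether neutrophils were present was not tested. Pigment epithelium markers were at a lower sum in PVR, between 367 and 385 CPM against between 487 and 683 CPM. LRAT and TTR passed as lower among 8 tested, against 0.615% of all genes tested, with log2 fold changes of -2.82 and -1.56. Of the 8 Müller glia markers, GLUL and RLBP1 passed as lower with log2 fold changes of -1.11 and -0.89, against 0.615% of all genes tested. GFAP, the filament of reactive glia, stood 1.39 higher on the log2 scale without passing (edgeR, adjusted p = 0.143), with 20.0, 60.5 and 86.1 FPKM in normal retina and 157, 164 and 138 FPKM in PVR, and 3 of the 8 were above 0. Their summed level overlapped between the groups, with 2642 to 3315 CPM in normal retina and 2635 to 2863 CPM in PVR. For the photoreceptor markers none of the 10 passed with edgeR, and all 10 were below 0 with a median of -0.29. At an unadjusted p under 0.05, 5 were lower (9.94% of all genes tested), and 2 passed as lower with DESeq2 (3.79%). The sum of these markers was between 36666 and 46137 CPM in normal retina and between 28860 and 38297 CPM in PVR. Endothelial markers stood between 601 and 639 CPM in normal retina and between 711 and 743 CPM in PVR. Among 8, VWF and CDH5 passed as lower, against 0.615% of all genes tested, and 3 were above 0. With DESeq2, 1 of the 8 passed as higher and 3 as lower, against 5.86% and 3.79% of all genes tested. The 8 oligodendrocyte markers were between 243 and 1206 CPM in normal retina and between 142 and 157 CPM in PVR. MOBP, MAG and ERMN passed as lower, against 0.615% of all genes tested. None of the 8 lens markers passed. These 12 marker calls depended on single samples. Without PVR replicate 1 all 12 were lost, without normal replicate 2 GLUL and VWF were kept and 10 were lost, without PVR replicate 2 GLUL, VWF and ERMN were kept and 9 were lost, and without normal replicate 1 or PVR replicate 3 the losses were 5 and 3. On the log2(FPKM + 1) scale 6 were lost, and CDH5 and VWF, which are low genes, had log2 fold changes of -0.39 and -1.28 against -6.86 and -5.02 with edgeR. With limma-voom 8 were lost. The part of these cells in the levels of the cathepsins and LAMP genes was not tested.

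For CTSK, the gene with the smallest p of the 8, the most similar profiles over the 6 samples were looked for among 9599 genes with a symbol and a mean log2 CPM of at least 3. The 5 highest Pearson correlations of log2 CPM were those of RUFY3, DRAM2, CCDC122, AGO3 and CFAP54, each between 0.995 and 0.997. Of the genes compared, 438 were above 0.9, and the 6 samples of 2 groups behind each value are the same for all. CFAP54 and CCDC122 passed the test, with log2 fold changes of 1.09 (standard error 0.16, adjusted p = 0.0291 from edgeR) and 0.95 (standard error 0.16, adjusted p = 0.0421 from edgeR). RUFY3, AGO3 and DRAM2 did not, with log2 fold changes of 0.37, 0.45 and 0.52. All 5 were chosen for following CTSK, which separates the groups, so their differences between the groups are not independent of the choice.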

How the data were processed

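RNA of 3 normal and 3 PVR rabbit retina samples, grouped by their labels, was analysed from 2 tables. Per the labels, fastp, HISAT2 and HTSeq were used. The authors aligned reads to OryCun2.0 and deposited the raw count of each gene, without normalization, and an FPKM value made from the same reads by gene length and total count (the implied lengths agreed between samples within 4.24e-09). The strand setting and annotation release are not given in the sources used here. No authors' comparison columns were present.

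Counts were tested in R 4.3.3 with edgeR 4.0.16 (default filter, 18697 of 28788 genes kept, TMM, quasi-likelihood F test, condition as the single term, Benjamini-Hochberg over all genes tested). The standard error is the log2 fold change divided by the square root of F. DESeq2 1.42.0 and limma 3.58.1 were alternatives, with RLE and upper-quartile factors, no filter or at least 10 counts in every sample, limma on the log2 FPKM with 1 or 0.1 added, the replicate number as a block, and 6 fits that each leave out a sample. Summed marker levels are CPM of all counted reads, and CPM of single genes are after TMM. The Clopper-Pearson interval was computed in SciPy 1.17.1. The genes described and the lists were chosen with earlier results of these data known. Named are the described genes, up to 4 genes per list past the test, and 5 genes most like the described gene with the smallest p. Others named were chosen after their values were seen. Of 205 list entries, 190 were matched by symbol, 4 by RefSeq gene identifier (mOryCun1.1, names only) and 11 had no match and are not analysed here. On simulated counts for 18697 genes with 200 changed, edgeR called 117, of which 7 were false, and DESeq2 called 200, of which 58 were false. Of the 200 changed genes, edgeR recovered 110, with 42 at a log2 change of 1 and 68 at 2. DESeq2 recovered 142, with 62 and 80. A gene that did not pass may therefore still have changed.

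The depth was between 31904593 and 43035080 counts, and intervals of counts cover counting error only. Samples of a group differed by more than counting noise (chi-square per degree of freedom from 19.6 to 185), so none was merged. Positions and sequences are not given, as no genome or sequence table was used here.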

Additional observations from a re-analysis of the deposited data

How the results depend on the processing

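Of the 8 genes, the number past an adjusted p of 0.05 was 1 with edgeR, 3 with DESeq2 (all higher), 0 with a replicate block and between 0 and 1 with a sample left out. With the fold threshold added it was 1, then 0 with the block and between 0 and 1 with a sample left out, and without normal replicate 3 CTSK passed with a log2 fold change of 0.92. CTSK had a log2 fold change of 1.01 with the block (adjusted p = 0.056 from edgeR) and between 0.85 and 1.12 with a sample left out (adjusted p from 0.0247 to 0.188). DESeq2 gave 0.90 for CTSH and 0.29 for LAMP2, both then past the threshold. LGMN turned from -0.07 to 0.00137 on the log2(FPKM + 1) scale and 0.00142 on the log2(FPKM + 0.1) scale. The other genes kept their direction and their side of the threshold in all 15 settings. The cause of these differences was not tested.

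Of the further lysosomal genes, 1 passed with edgeR, 5 with DESeq2 (4 lower), 2 without a filter (1 lower) and 0 with at least 10 counts in every sample (a filter that removes ATP6V0D2), limma-voom, either FPKM scale or the block. With a sample left out it was between 0 and 2, of which between 0 and 1 were lower. Over all genes, 318 passed with edgeR, 1804 with DESeq2, 92 with the block and between 22 and 650 with a sample left out. Past both thresholds there were 188, then 731 with DESeq2, 87 on the log2(FPKM + 1) scale, 82 with the block and between 22 and 436 with a sample left out. After removal of the group means, samples of the same number had correlations from -0.01 to 0.07, and those of unlike number from -0.08 to 0.04. With 3 samples per group, these values cannot decide whether the number pairs the samples. The count of genes with no overlap was between 4 and 6, and the PVR to normal ratio was between 1.07 and 1.11 for the summed FPKM and between 1.45 and 1.71 for LAMP2 to LAMP1, the latter chosen after the data had been seen.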
